A study of Homo sapiens with 6 samples.

Results

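BIM is the protein made from the gene BCL2L11, and all transcripts that the deposited RSEM tables place under that gene symbol were taken, which gave 18 of 51398 transcripts and 1 of 26329 genes. The gene was chosen because its level was already known to differ between the conditions, so its levels, fold changes and isoform shares are given here as a description with no test, and tests are given for other genes only. RNA was sequenced from PC-9 cells, a human EGFR-mutant lung adenocarcinoma line, grown in RPMI medium with serum and without any drug, with 2 libraries per condition and 6 in all. Control cells carried a scrambled shRNA (shScr), and RBM10 KD cells carried shRBM10#1 or shRBM10#2, separate shRNAs against RBM10, an RNA-binding regulator of splicing. Cells of all 3 conditions therefore carried an shRNA. The control is called parental PC-9 in the methods and shScr in the labels, and the labels were followed. Nothing in the sources states that the replicates were separate cultures, so p-values measure only the spread between these libraries, which may be technical.

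BIM belongs to the BH3-only branch of the Bcl-2 family. Its BH3 domain, a short helix, binds prosurvival proteins such as Bcl-xL and Mcl-1 and can activate Bax and Bak, the proteins that permeabilize the outer mitochondrial membrane, and its hydrophobic C-terminal tail anchors it there. In EGFR-mutant lung cancer cells, EGFR signaling keeps BIM low, and its accumulation after EGFR inhibition is a known step of the apoptotic response. Splicing of BCL2L11 gives BimEL, BimL and BimS, which share BH3 and tail and differ in exon 2, and further transcripts that lose the tail or the BH3 domain.

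BCL2L11 lies on the plus strand of chromosome 2 from 111119378 to 111168447 (GRCh38, GENCODE 29), a build other than the hg19 of the deposited tables, and no coordinate was converted. Exon 2 has 3 parts that are spliced in or out. Part A (137 nt) is in every transcript, part B (180 nt) is in BimEL but not in BimL or BimS, and part C (90 nt) is in BimEL and BimL but not in BimS. Each of the EL, L and S forms of exon 2 was found in 6 of the 18 transcripts. The exon parts that separate the isoforms are shown because the values below turn on them. Part B at chr2:111123870-111124049 holds, in capitals, the codons of residues 69 and 70 of BimEL, the serine and proline of the phosphorylation site that marks BimEL for turnover. Part C at chr2:111124050-111124139 holds, in capitals, the codons of residues 112 to 116, the motif through which BimEL and BimL bind dynein light chain. The BH3 exon (104 nt) at chr2:111150044-111150147 holds, in capitals, the codons of residues 152 to 157, the core of the BH3 helix.
exon 2 part B: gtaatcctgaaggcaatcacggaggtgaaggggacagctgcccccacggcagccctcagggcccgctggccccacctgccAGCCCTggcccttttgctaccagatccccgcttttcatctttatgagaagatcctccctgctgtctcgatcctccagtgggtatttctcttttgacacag
exon 2 part C: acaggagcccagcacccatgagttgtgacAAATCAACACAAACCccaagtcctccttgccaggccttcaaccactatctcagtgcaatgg
BH3 exon: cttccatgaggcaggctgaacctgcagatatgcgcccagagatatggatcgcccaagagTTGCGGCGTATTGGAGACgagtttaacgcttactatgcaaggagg

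The junctions that tell the transcripts apart are shown as the last 18 bases of the upstream exon in lower case and the first 12 bases of the downstream exon in capitals. A read can separate these transcripts only where it crosses such a junction or lies in a part that is spliced in or out.
BimEL and BimL, exon 2 into BH3 exon: actatctcagtgcaatggCTTCCATGAGGC
BimL, part A into part C: tacagacagagccacaagACAGGAGCCCAG
BimS, part A into BH3 exon: tacagacagagccacaagCTTCCATGAGGC
BH3 exon into last exon: gcttactatgcaaggaggGTATTTTTGAAT
BH3 exon into cassette exon: gcttactatgcaaggaggTTAGAGAAATAG
exon 2 into last exon, BH3 exon skipped: actatctcagtgcaatggGTATTTTTGAAT
exon 2 into gamma exon: actatctcagtgcaatggTAGTCATCCTAG

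By the reading frames of the assembled exons, 3 of the 18 transcripts encode both BH3 and the tail: NM_138621 (BimEL, 198 codons), NM_006538 (BimL, 138 codons) and NM_001204106 (BimS, 108 codons). A further 6 encode BH3 but end before the tail, and 9 encode no BH3. The exon parts of 9 transcripts were taken from their own GENCODE entry, and the others rest in part or in full on the RSEM length. The assembled length equalled the RSEM length in 7 of the 9 with their own entry, and in the others it was part of how the exons were chosen. The last exon (4313 nt) made up 84.6% of the BimEL transcript, and 16 of the 18 transcripts end in it, so most positions of a transcript do not tell the isoforms apart, and RSEM divided reads from there by likelihood. MIR4435-2HG, a long noncoding RNA gene on the minus strand, spans the locus, and of the BCL2L11 exons only the last is overlapped by an exon of it. The sources do not state a strand protocol, and without strand reads from that stretch cannot be told apart.

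**Figure D1:**
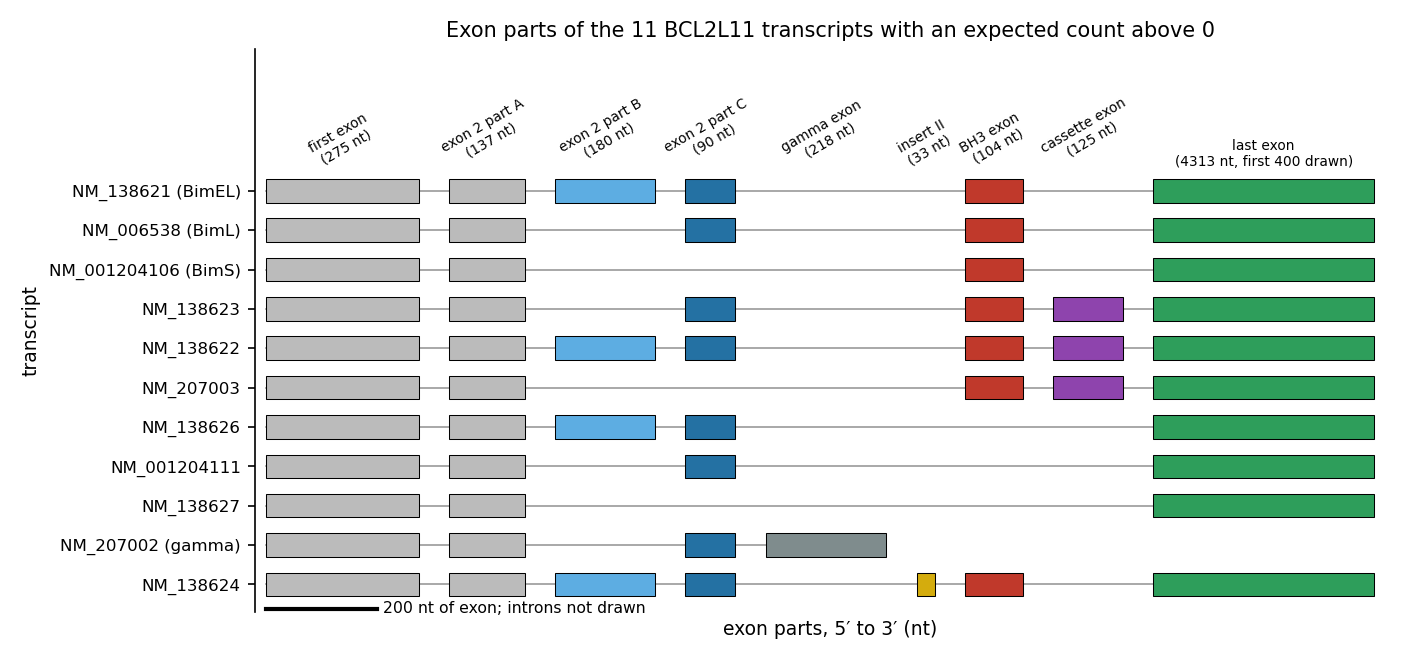
Exon parts of the 11 BCL2L11 transcripts that had an expected count above 0 in a library, in 5′ to 3′ order with widths to scale in nt, the last exon drawn for its first 400 nt. BimEL, BimL and BimS differ in exon 2 parts B and C, 3 transcripts carry the 125 nt cassette exon after the BH3 exon, and 3 run from exon 2 straight into the last exon.

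Expected counts, the reads that RSEM estimates for each transcript, summed to between 31953729 and 37557507 per library. The mean fragment was 231.2 nt in shScr replicate 2 and 264.9 to 281.2 nt in the other libraries, a difference within the control group that enters TPM (counts divided by effective length and scaled to a fixed total per library). CPM, expected counts on a fixed scale of library size with TMM factors, were used for levels of the gene between libraries. RBM10 had 83.2 and 86.2 CPM with shScr, 59.8 and 56.4 with shRBM10#1, and 27.2 and 26.9 with shRBM10#2, and no shRBM10 library reached the shScr range. Its log2 FC against shScr was −0.54 (SE 0.0671, FDR = 2.29e-04) with shRBM10#1 and −1.65 (SE 0.0701, FDR = 5.02e-08) with shRBM10#2 (edgeR quasi-likelihood test over 14215 genes). The 5 epithelial markers summed to between 20195 and 25627 TPM per library, and 10 markers of blood, endothelial and stromal cells to between 3.72 and 4.70 TPM, with HBB at 0 in all libraries. Of these markers, KRT19 rose with shRBM10#1 (log2 FC 0.28, FDR = 0.0121) and fell with shRBM10#2 (log2 FC −0.28, FDR = 0.00851), EPCAM rose with shRBM10#2 (log2 FC 0.24, FDR = 0.018), and KRT8 and KRT18, the most abundant, passed with neither shRNA against shScr (edgeR). At or below 2.88 TPM, PECAM1 rose with shRBM10#1 (FDR = 0.0462), and COL1A1 and VWF fell with shRBM10#2 (FDR = 0.0401 and 0.042). Each of these marker calls was lost without at least 1 library, KRT19 with shRBM10#1 without shScr replicate 2 (FDR = 0.0804), KRT19 with shRBM10#2 in 3 of 6 fits (FDR up to 0.145) and EPCAM in 3 of 6 (FDR up to 0.167). Their part in the values below was not tested.

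BCL2L11 stood above the shScr level with either shRNA. The gene had 25.0 and 24.8 CPM with shScr, 37.1 and 40.0 with shRBM10#1, and 37.0 and 35.6 with shRBM10#2. These levels came from 812 and 815 expected counts with shScr, 1161 and 1473 with shRBM10#1, and 1375 and 1365 with shRBM10#2. The shScr libraries lay close together, and the 4 RBM10 KD libraries lay in a narrow band above them with no overlap. Of all 14215 genes tested, 14.9% had all 4 RBM10 KD libraries above both shScr libraries. The share with both libraries above was 27.9% for shRBM10#1 and 33.6% for shRBM10#2, so separation of the groups alone is common in these data.

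Relative to shScr, BCL2L11 was 1.55-fold higher with shRBM10#1 (log2 FC 0.63, SE 0.0753) and 1.46-fold higher with shRBM10#2 (log2 FC 0.55, SE 0.0751). Treating the 4 RBM10 KD libraries as a single group gave a log2 FC of 0.59 (SE 0.0844). A larger log2 FC was found for 3.60% of genes with shRBM10#1 and 5.41% with shRBM10#2. RBM10 fell further with shRBM10#2, by a log2 FC of −1.11 against shRBM10#1 (SE 0.0704, FDR = 3.62e-06, edgeR). BCL2L11 differed between the shRNAs by a log2 FC of −0.09 (SE 0.0729), a ratio of 0.942 with a 95% interval from 0.851 to 1.04. RBM10 was thus lower with shRBM10#2 than with shRBM10#1. The interval for BCL2L11 included 1, so its direction between the shRNAs was not resolved.

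On the TPM scale, BCL2L11 had 7.65 and 9.25 TPM with shScr, 12.2 and 12.2 with shRBM10#1, and 12.0 and 11.4 with shRBM10#2. The order of the conditions was the same as in CPM, and the ratio of the means to shScr was 1.44 with shRBM10#1 and 1.39 with shRBM10#2. The shScr libraries were farther apart in TPM than in CPM, and the library with the shorter fragments was the higher. The median log2 ratio of mean TPM over all genes tested was −0.09 with shRBM10#1 and −0.05 with shRBM10#2, whereas the median log2 FC of the scaled counts was 0.01 with each.

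**Figure D2:**
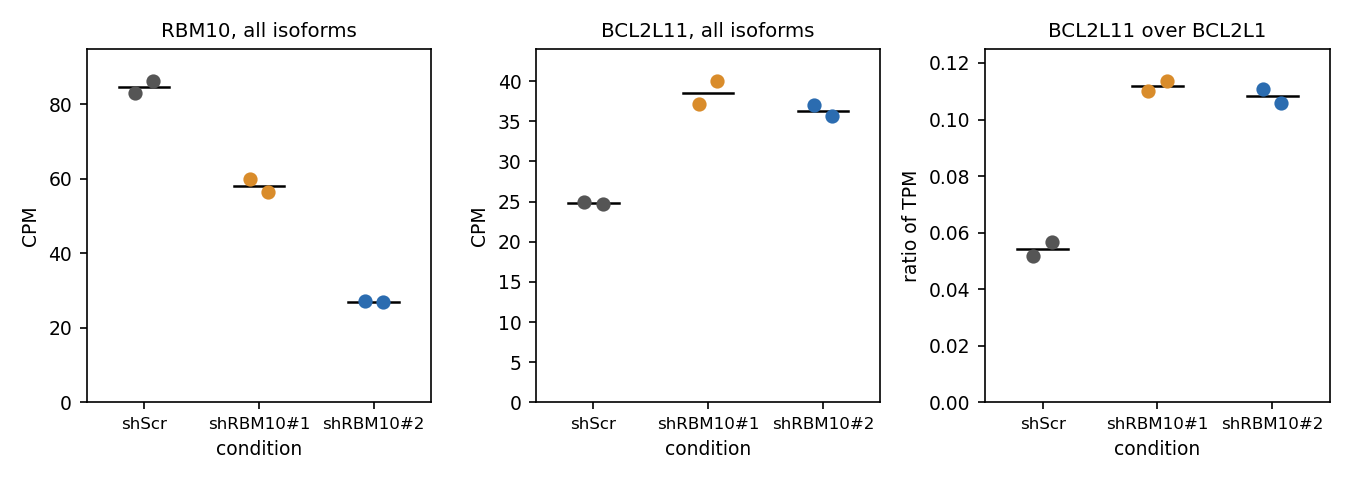
RBM10 (CPM, left), BCL2L11 (CPM, middle) and the ratio of BCL2L11 to BCL2L1 (TPM over TPM, right) in each library, with points for libraries and a line for the mean of 2. RBM10 falls in steps from shScr to shRBM10#2, while BCL2L11 stands near 25 CPM with shScr and between 35.6 and 40.0 CPM with either shRNA.

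Set among the Bcl-2 family per transcript length, BCL2L11 was of middle rank. By mean TPM over the 6 libraries it ranked 10 of 16 family genes, with 10.8 TPM, next to PMAIP1 (NOXA, 12.0 TPM) and BBC3 (PUMA, 10.4 TPM), and its range over libraries overlapped both. Bax (BAX, 171 TPM), the gene of Bcl-xL (BCL2L1, 124 TPM) and BAD (117 TPM) headed the order, and BCL2A1 (0.04 TPM) closed it. Of all genes tested, 47.8% had a mean TPM below that of BCL2L11. The ratio of BCL2L11 to BCL2L1, the gene of a prosurvival protein that BIM binds, was 0.0519 and 0.0566 with shScr, 0.110 and 0.114 with shRBM10#1, and 0.111 and 0.106 with shRBM10#2. The ratio was about double in RBM10 KD cells (2.06 times with shRBM10#1 and 2.00 times with shRBM10#2), with BCL2L11 higher and BCL2L1 lower. The ratio to MCL1, another binding partner, was 0.0751 and 0.0776 with shScr, 0.129 and 0.132 with shRBM10#1, and 0.136 and 0.133 with shRBM10#2. These are ratios of RNA, and protein was not measured in these files. The BCL2L1 total also holds the RNA of Bcl-xS, a proapoptotic splice form, so its ratio is not one to Bcl-xL alone.

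At the level of transcripts, 7 of the 18 had an expected count of 0 in all 6 libraries, 6 were above 0 in all, and 5 were above 0 in some. An expected count of 0 means that RSEM gave the transcript no reads, not that no read was compatible with it. The filter on low counts was passed by 9 of the 18. Of all transcripts that passed it, 22.5% had both shRBM10#1 libraries above both shScr libraries and 22.2% had both below. Among the BCL2L11 transcripts, 3 were above with shRBM10#1 (BimEL, BimL and NM_138623), 0 were below, and 8 with counts overlapped. With shRBM10#2, 4 were above (the same 3 and NM_001204111), 2 were below (NM_138622 and NM_138626) and 5 overlapped, against 27.6% above and 27.1% below among all transcripts.

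BimEL (NM_138621), the longest of the main forms, gave the largest mean share of the gene. It had 8.42 and 6.32 CPM with shScr, 12.8 and 13.7 with shRBM10#1, and 15.4 and 15.7 with shRBM10#2. The 3 conditions did not overlap, with shRBM10#2 the highest. The fit over all transcripts gave BimEL a log2 FC of 0.84 (SE 0.166) with shRBM10#1 and 1.08 (SE 0.166) with shRBM10#2, and of 0.24 (SE 0.163) between the shRNAs. The 95% interval of the ratio of shRBM10#2 to shRBM10#1 ran from 0.941 to 1.48, so the order of the shRNAs was not resolved at this spread.

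As a share of the gene's TPM, BimEL made up 32.4% and 23.2% with shScr, 31.5% and 32.5% with shRBM10#1, and 38.9% and 41.7% with shRBM10#2. For shScr the mean share was 27.8% ± 6.49 (SD, n = 2), for shRBM10#1 32.0% ± 0.718 (SD, n = 2), and for shRBM10#2 40.3% ± 2.00 (SD, n = 2). The shRBM10#1 libraries lay within the shScr range or beside its upper end, and the shRBM10#2 libraries lay above it. As shares of expected counts, the same values were 33.6% and 25.5%, 34.4% and 34.3%, and 41.6% and 44.1%. Their 95% Wilson intervals, which cover counting error only, were 30.5% to 36.9% and 22.7% to 28.6% for the shScr libraries and 39.0% to 44.2% and 41.5% to 46.8% for the shRBM10#2 libraries. The intervals of the shScr replicates did not overlap, but they treat each expected count as a read that identifies its transcript. Most positions of a transcript do not tell the isoforms apart, so the true counting error is wider. Whether the shScr replicates differed by more than that error cannot be told from these intervals.

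BimL (NM_006538), which lacks the phosphorylation site of part B but keeps the dynein light chain motif, had 5.07 and 3.70 CPM with shScr, 6.38 and 5.48 with shRBM10#1, and 6.28 and 7.75 with shRBM10#2. All 4 RBM10 KD libraries were above both shScr libraries, by a log2 FC of 0.43 (SE 0.237) with shRBM10#1 and 0.68 (SE 0.237) with shRBM10#2. Its share of the gene's TPM overlapped between the conditions and ranged from 13.5% to 21.4%. The ratio of BimEL to BimL in TPM was 1.60 and 1.64 with shScr, 1.93 and 2.41 with shRBM10#1, and 2.36 and 1.95 with shRBM10#2. The ratio was higher in each RBM10 KD library, with shScr libraries close together. How often ratios of isoforms separate in this way in other genes is not given here, and no interval was fitted to the ratio.

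BimS (NM_001204106), which lacks both regulated parts of exon 2 and is the most potent of the 3 forms in overexpression assays, was the least stable value. It had 0.619 and 4.96 CPM with shScr, 4.80 and 7.55 with shRBM10#1, and 7.48 and 3.37 with shRBM10#2. Within shScr alone its share of the gene's TPM was 2.48% and 19.2%, and both RBM10 KD conditions overlapped shScr in share and in level. The log2 FC was 1.15 with shRBM10#1 and 0.97 with shRBM10#2, each with an SE near its own size (0.946 and 0.943).

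**Figure D3:**
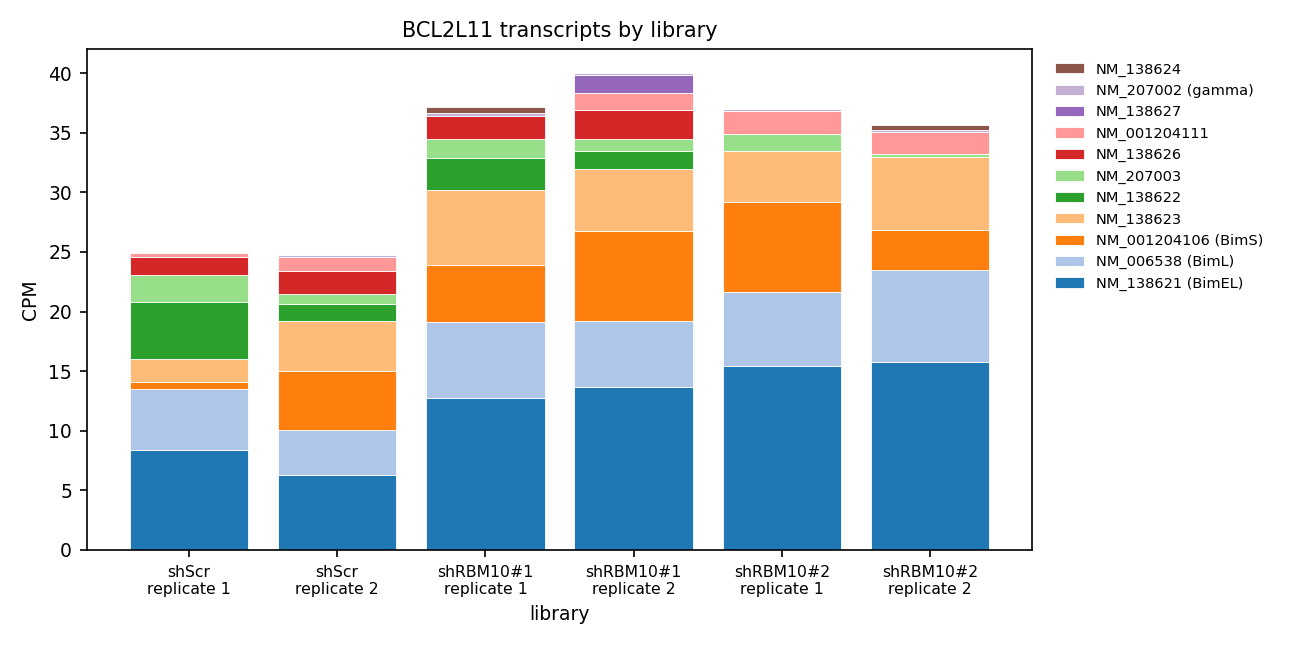
CPM of each BCL2L11 transcript, stacked by library from BimEL at the bottom, with the height of a bar equal to the gene total. BimEL is the largest block in every library, the BimS block differs between libraries of the same condition, and NM_138622 and NM_138626 all but vanish with shRBM10#2.

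The 3 detected transcripts with the cassette exon (125 nt) encode BH3 but no tail. NM_138623, with the exon 2 of BimL, had 1.94 and 4.26 CPM with shScr, 6.27 and 5.25 with shRBM10#1, and 4.34 and 6.09 with shRBM10#2, so all 4 RBM10 KD libraries were above shScr. NM_138622, with the exon 2 of BimEL, had 4.72 and 1.39 CPM with shScr, 2.68 and 1.49 with shRBM10#1, and 0 and 0.024 with shRBM10#2. NM_207003, with the exon 2 of BimS, had 2.30 and 0.869 CPM with shScr, 1.55 and 0.981 with shRBM10#1, and 1.37 and 0.256 with shRBM10#2. In CPM, only NM_138622 was separated from shScr in the lower direction, with shRBM10#2, and the L form was higher with both shRNAs. With shRBM10#2 the margin of the L form was narrow (4.34 against 4.26 CPM). In TPM the L form overlapped there, at 1.33 and 1.87 against 0.58 and 1.46 with shScr. Its log2 FC was 0.89 (SE 0.417) with shRBM10#1 and 0.75 (SE 0.417) with shRBM10#2.

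Among the transcripts without BH3, NM_138626, which joins the full exon 2 to the last exon, had 1.53 and 1.94 CPM with shScr, 1.92 and 2.49 with shRBM10#1, and 0 in both shRBM10#2 libraries. NM_001204111, its counterpart with the exon 2 of BimL, had 0.34 and 1.12 CPM with shScr, 0 and 1.40 with shRBM10#1, and 1.99 and 1.86 with shRBM10#2. These transcripts differ by part B alone. With shRBM10#2 the higher level of NM_001204111 was not resolved (log2 FC 1.39, SE 1.66). The part of RSEM's division of shared reads in the values of both transcripts was not tested. Together with NM_138627, detected only in shRBM10#1 replicate 2 (1.52 CPM), they made up 7.45% and 11.6% of the gene's TPM with shScr, 4.84% and 13.5% with shRBM10#1, and 5.33% and 5.26% with shRBM10#2. The gamma transcript (NM_207002), which ends in an alternative exon before BH3, stayed between 0.07 and 0.28 CPM in all libraries. NM_138624, in which a 33 nt insert ends the frame before BH3, had 0.473 CPM in shRBM10#1 replicate 1, 0.412 CPM in shRBM10#2 replicate 2, and 0 elsewhere.

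The transcripts were also summed by what they encode. The SD between the shScr libraries was 1.05 percentage points of share for BimEL, BimL and BimS together, 7.43 for transcripts with BH3 but no tail and 6.38 for those without BH3. BimEL, BimL and BimS together had 14.1 and 15.0 CPM with shScr, 23.9 and 26.7 with shRBM10#1, and 29.2 and 26.8 with shRBM10#2. Their share of the gene's TPM was 55.2% and 56.6% with shScr, 60.4% and 65.0% with shRBM10#1, and 75.4% and 72.6% with shRBM10#2. The conditions did not overlap in this share, whose mean was higher than with shScr by 6.81 percentage points with shRBM10#1 and by 18.1 percentage points with shRBM10#2. The pooled SD between replicates of a condition was 2.29 percentage points.

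Transcripts with BH3 but no tail made up 34.5% and 24.0% of the gene's TPM with shScr, 26.1% and 18.4% with shRBM10#1, and 14.7% and 17.2% with shRBM10#2. The shRBM10#1 libraries overlapped shScr, and the shRBM10#2 libraries lay below. Their summed level was 8.95 and 6.51 CPM with shScr, 10.5 and 7.72 with shRBM10#1, and 5.71 and 6.37 with shRBM10#2. Transcripts without BH3 made up 10.3% and 19.4%, 13.5% and 16.6%, and 9.91% and 10.3% in the same order, with shRBM10#2 just below the lower shScr library.

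Grouped instead by exon 2, the shares overlapped between all conditions. The EL form made up 35.5% to 56.2% of the gene's TPM over the 6 libraries, the L form 32.2% to 47.0% and the S form 10.2% to 25.3%. The range was widest in the EL form, whose lowest and highest libraries were both shScr. The conditions were thus separated in the summed share of BimEL, BimL and BimS, and overlapped in the shares by exon 2 form. How often summed isoform shares separate in other genes is not given here, and separation in level was common.

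**Figure D4:**
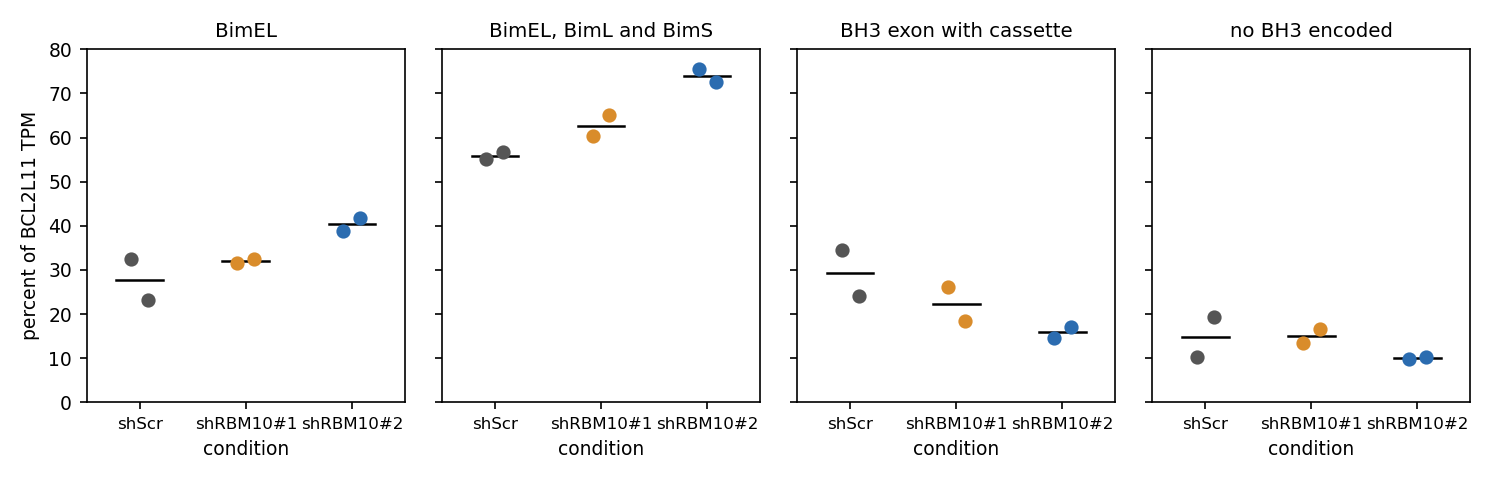
Percent of BCL2L11 TPM given by BimEL, by BimEL, BimL and BimS together, by transcripts with the BH3 exon and the cassette exon, and by transcripts without BH3, with points for libraries and a line for the mean of 2. The summed share of BimEL, BimL and BimS lies between 55.2% and 56.6% with shScr and between 72.6% and 75.4% with shRBM10#2, with shRBM10#1 between them.

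The genes that act with BIM or on it were taken as 7 lists by role, 46 genes of which 42 could be tested with edgeR over all genes. With shRBM10#1, 1 of the 42 rose and 6 fell, against 14.1% of all genes called (7.14% rose and 6.92% fell). With shRBM10#2, 2 rose and 11 fell, against 25.9% of all genes called (12.0% rose and 13.9% fell). Between the shRNAs, 5 were higher with shRBM10#2 and 6 were lower, against 25.5% of all genes called (11.0% higher and 14.5% lower). The median log2 FC over the 42 was −0.04 with shRBM10#1 and −0.07 with shRBM10#2, beside 0.01 over all genes tested in each comparison. In the pooled comparison 0 rose and 1 fell, where 1.62% of all genes were called (0.542% rose and 1.08% fell). DESeq2 called 0 higher and 2 lower there, and 6 of the 42 had an unadjusted p below 0.05 in edgeR. The shares of all genes under these rules are not given, and the 1.62% is not their background. Both shRNAs are compared with the same shScr libraries, so their values are not independent of each other.

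Among the genes of prosurvival proteins that BIM binds, BCL2L1 fell with both shRNAs as a gene total. This total sums the RNAs of prosurvival Bcl-xL and proapoptotic Bcl-xS, which were not separated here. BCL2L1 had 147 and 164 TPM with shScr, 111 and 108 with shRBM10#1, and 108 and 108 with shRBM10#2. Its log2 FC was −0.41 (SE 0.0598, FDR = 6.62e-04, edgeR) with shRBM10#1 and −0.46 (SE 0.0598, FDR = 3.78e-04, edgeR) with shRBM10#2, and it was the gene called in the pooled comparison (log2 FC −0.44, FDR = 0.0242, edgeR). The pooled call was lost without shScr replicate 1 (FDR = 0.327), shScr replicate 2 or shRBM10#2 replicate 1. ABALON, an antisense RNA gene that overlaps BCL2L1 and may share its reads, had 11.9 and 17.4 CPM with shScr, 10.7 and 8.58 with shRBM10#1, and 10.5 and 9.53 with shRBM10#2. MCL1 fell with shRBM10#2 (log2 FC −0.28, SE 0.0602, FDR = 0.00606, edgeR), with 102 and 119 TPM with shScr against 88.5 and 86.1. This call was lost without either shRBM10#2 replicate, with a log2 FC of −0.26 without replicate 2. With shRBM10#1, MCL1 had a log2 FC of −0.14 (FDR = 0.147, edgeR). BCL2L2 (Bcl-w) passed only between the shRNAs (log2 FC 0.26, FDR = 0.0158, edgeR). Of this list BCL2A1 was too low to test, at 0 to 0.12 TPM.

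Of the pore-forming effectors, BAX and BOK gave calls with shRBM10#2 and BAK1 did not. BAX fell from 196 and 174 TPM with shScr to 151 and 155 TPM with shRBM10#2 (log2 FC −0.27, SE 0.0817, FDR = 0.0305, edgeR). BOK, a related effector, fell by 0.27 on the log2 scale (FDR = 0.0103, edgeR). BAK1 had a log2 FC of −0.06 with shRBM10#2 (FDR = 0.559) and of −0.0015 with shRBM10#1 (FDR = 0.992), at 29.5 to 34.3 TPM. The BAX call was lost without shScr replicate 1 (log2 FC −0.14, FDR = 0.25) and without either shRBM10#2 replicate, and the BOK call without either shRBM10#2 replicate (FDR up to 0.151).

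Of the other BH3-only genes, 7 of 7 could be tested. BMF, a BH3-only protein that like BIM binds dynein light chain, rose with shRBM10#1, from 4.45 and 5.06 TPM to 5.56 and 7.28 TPM (log2 FC 0.55, SE 0.127, FDR = 0.0125, edgeR). Without shRBM10#1 replicate 2 its log2 FC was 0.30 (FDR = 0.104), and the call was also lost without either shScr replicate. BAD, which binds Bcl-xL and Bcl-2, fell with shRBM10#2 (log2 FC −0.21, SE 0.0681, FDR = 0.0405, edgeR), a call lost without either replicate of shScr or of shRBM10#2 (FDR up to 0.362). BID, the next most abundant at 60.0 TPM, had a log2 FC of 0.06 with shRBM10#1 and 0.12 with shRBM10#2 (FDR = 0.693 and 0.313). PMAIP1 had 13.6 and 13.0 TPM with shScr, 7.54 and 11.1 with shRBM10#1, and 12.8 and 13.7 with shRBM10#2, and passed only between the shRNAs (log2 FC 0.46, FDR = 0.0479, edgeR). It did not pass that comparison without shRBM10#1 replicate 1 (log2 FC 0.19, FDR = 0.275).

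Of 9 transcription regulators of BCL2L11, 8 could be tested, and 2 fell with each shRNA. Among all genes, 6.92% fell with shRBM10#1 and 13.9% with shRBM10#2, and counts this small do not set the list apart. FOXO3, a direct activator of the gene, fell with both. It had 27.6 and 32.6 TPM with shScr, 24.2 and 21.5 with shRBM10#1, and 21.6 and 20.6 with shRBM10#2. The log2 FC was −0.30 (SE 0.0659, FDR = 0.00983, edgeR) with shRBM10#1 and −0.44 (SE 0.066, FDR = 7.60e-04, edgeR) with shRBM10#2, and the first of these was lost without shScr replicate 2 (FDR = 0.0652) or shRBM10#1 replicate 2. RUNX1 fell with shRBM10#2 (log2 FC −0.33, FDR = 0.00562, edgeR), although not without shRBM10#2 replicate 2 (FDR = 0.11). DDIT3 (CHOP), an activator of BCL2L11 under endoplasmic reticulum stress, fell with shRBM10#1 (log2 FC −0.65, SE 0.183, FDR = 0.0315, edgeR). Its shScr libraries were far apart at 24.0 and 16.0 TPM, and without shScr replicate 1 its log2 FC was −0.29 (FDR = 0.271), and the call was also lost without either shRBM10#1 replicate. FOXO4 (log2 FC −0.36, FDR = 0.0177) and MYC (log2 FC −0.22, FDR = 0.0467) were lower with shRBM10#2 than with shRBM10#1 (edgeR), and E2F1, at 49.4 TPM, had a log2 FC of 0.05 and 0.03 against shScr.

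The proteins that phosphorylate BIM, mark it for turnover or hold it on the cytoskeleton gave small changes in both directions. MAPK8 (JNK1), which phosphorylates BIM at sites that free it, fell with shRBM10#1 (log2 FC −0.53, SE 0.0844, FDR = 0.00124, edgeR), at 6.93 and 8.18 TPM with shScr, 4.97 and 4.76 with shRBM10#1, and 7.22 and 6.42 with shRBM10#2. RPS6KA3 (RSK2; log2 FC 0.20, FDR = 0.0313) and TRIM2, a ubiquitin ligase for BIM (log2 FC 0.21, FDR = 0.0338), rose with shRBM10#2 (edgeR). RPS6KA1 (RSK1) fell with shRBM10#2 (log2 FC −0.21, FDR = 0.0461, edgeR) and RPS6KA2 (RSK3) with both (log2 FC −0.30 and −0.27, FDR = 0.0282 and 0.0264, edgeR). DYNLL2, a dynein light chain, fell with shRBM10#2 (log2 FC −0.31, SE 0.0644, FDR = 0.00429, edgeR), from 127 and 141 TPM to 105 and 102 TPM. The more abundant DYNLL1 (553 TPM) had a log2 FC of −0.02 and 0.03 (FDR = 0.9 and 0.766), and PPP2CA, a phosphatase subunit (137 TPM), of −0.04 and 0.10 (FDR = 0.684 and 0.26). Of these 7 calls against shScr, MAPK8 alone held without each library in turn, and the others were lost without at least 1 library of their comparison, with an FDR of up to 0.358 for RPS6KA1 without shRBM10#2 replicate 1.

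Of 4 splicing factors reported to act on BCL2L11, PTBP1 fell with shRBM10#2, from 316 and 373 TPM with shScr to 280 and 283 TPM (log2 FC −0.23, SE 0.0659, FDR = 0.0242, edgeR). With shRBM10#1 it had 353 and 312 TPM (log2 FC 0.05, FDR = 0.682), and the shRNAs differed (log2 FC −0.27, FDR = 0.0095, edgeR). Its call against shScr was lost without either replicate of shScr or of shRBM10#2 (FDR up to 0.209). HNRNPC, at 377 TPM, had a log2 FC of 0.03 and 0.01 (FDR = 0.841 and 0.908), and SRSF1 and SRSF6 did not pass with either shRNA.

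Of the genes next to BCL2L11 on chromosome 2, 5 could be tested. MIR4435-2HG, whose reads the last exon of BCL2L11 may share, had 132 and 112 TPM with shScr, 89.7 and 103 with shRBM10#1, and 142 and 135 with shRBM10#2. It fell with shRBM10#1 (log2 FC −0.32, SE 0.0962, FDR = 0.0429, edgeR), a call lost in 5 of the 6 fits that left out a library (FDR up to 0.223, without shScr replicate 1). It had a log2 FC of 0.16 with shRBM10#2 (FDR = 0.24). The shRNAs differed (log2 FC 0.48, FDR = 0.00358, edgeR). The part of shared reads in the BCL2L11 values was not tested. BUB1, a mitotic kinase gene at 51.2 TPM, had a log2 FC of −0.04 and 0.11 (FDR = 0.768 and 0.262), and ACOXL, ANAPC1 and MERTK did not pass.

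**Figure D5:**
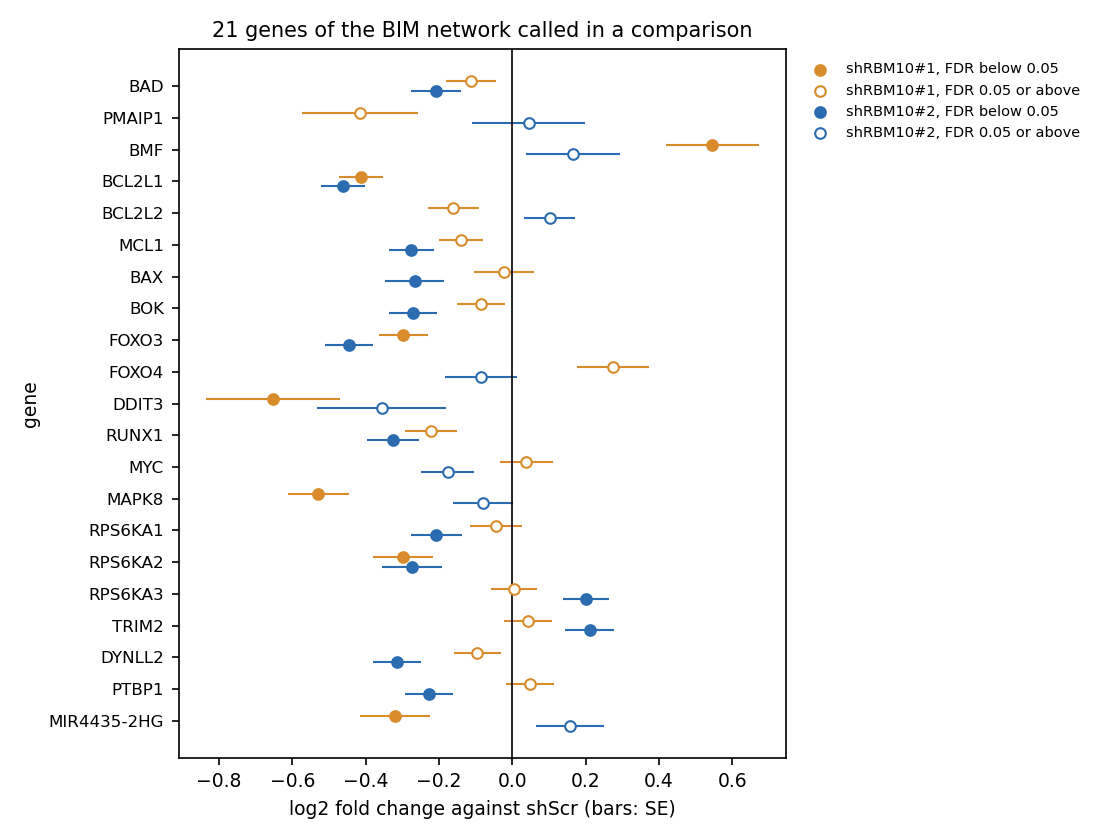
Log2 FC against shScr with SE for the 21 genes of the BIM network called in at least 1 comparison, ordered by role, orange for shRBM10#1 and blue for shRBM10#2, filled where the FDR is below 0.05. BCL2L1, FOXO3 and RPS6KA2 are filled and left of 0 with both shRNAs, and the genes filled to the right of 0 are BMF, RPS6KA3 and TRIM2.

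Leaving out each library in turn changed many of these calls. How many calls among all genes were lost in the same way is not given, so this does not set the network apart. Of the 32 calls in the network over the 4 comparisons, 5 held without every single library, namely BCL2L1 with each shRNA, FOXO3 with shRBM10#2, MAPK8 with shRBM10#1, and MIR4435-2HG between the shRNAs. The other 27 were lost without at least 1 library, at an FDR between 0.0612 and 0.377 in the weakest of these fits.

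The genes whose level across the 6 libraries was most like that of BCL2L11 were TMEM147, CHN2, HPSE, NMNAT1 and RAB3D, with Pearson's r of log2 CPM from 0.995 to 0.999. TMEM147, a protein of the endoplasmic reticulum membrane, had 59.0 and 58.8 CPM with shScr, 68.5 and 70.6 with shRBM10#1, and 68.7 and 68.2 with shRBM10#2. CHN2, a GTPase-activating protein for Rac, had 8.53 and 8.20 CPM with shScr, 14.1 and 15.6 with shRBM10#1, and 13.5 and 12.8 with shRBM10#2. The r values describe 6 libraries in 3 conditions that share a control, and 142 of the 14214 other genes had an r above 0.95, so the 5 genes are the top of a long list.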

How the data were processed

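The authors aligned reads with STAR 2.4 to hg19 and quantified RefSeq transcripts with RSEM 1.2.29, per the submitters' processing notes, which also name edgeR. The authors deposited, per transcript and library, the expected count, TPM, FPKM and the percent of the gene's expression. Expected counts, estimates that divide shared reads between transcripts, were summed per gene and rounded. TPM gave levels compared between genes and isoform shares, and FPKM was not used. The deposited percent per isoform equalled the TPM share within 0.06 percentage points.

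Genes (14215) and transcripts (26464) past edgeR's filterByExpr were fitted with edgeR 4.0.16 (TMM, quasi-likelihood, R 4.3.3) by condition. Calls were made at an FDR (Benjamini-Hochberg, all genes tested) below 0.05. Each RBM10 KD condition, and both pooled, was compared with shScr, and the shRNAs with each other. The fit had no replicate block, because the methods name none. Alternatives were DESeq2 1.42.0, its size factors in edgeR, no filter, at least 10 counts in every library, limma 3.58.1 on log2(TPM + 1), the log2 ratio of mean TPM, an absolute log2 FC above 1, a replicate block, each library left out in turn, and, for shares, expected counts or a pseudocount of 0.1 TPM. Fits of the BimEL transcript and of the share of BimEL, BimL and BimS under alternatives were added after the data were seen. The procedures were tested on simulated counts. Wilson intervals (95%) came from SciPy 1.17.1. Total expected counts per library, 31953729 to 37557507, limit precision through the counts of the gene.

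Members and lists were chosen with earlier results of these data known. The genes named are BCL2L11 and its transcripts, RBM10, BCL2L1, MCL1, from each list the genes called in a comparison and the 2 with the highest mean TPM, and the 5 genes most like BCL2L11 by Pearson's r of log2(CPM + 0.5). ABALON, BAK1, BCL2A1, ACOXL, ANAPC1, MERTK, SRSF1, SRSF6, BBC3 and HBB were named after their values were seen. Exon parts and sequences come from GENCODE 29 on GRCh38. A further gene was taken out of the lists and is not analysed here.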

Additional observations from a re-analysis of the deposited data

Results flagged for a closer look

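In the BIM network, 11 of the 42 genes tested differed between the shRNAs against RBM10 by a direct edgeR test of shRBM10#2 against shRBM10#1, beside 25.5% of all genes. PMAIP1 (log2 FC 0.46), MIR4435-2HG (0.48), MAPK8 (0.45), BCL2L2 (0.26) and RPS6KA3 (0.20) were higher with shRBM10#2. BMF (log2 FC −0.38), FOXO4 (−0.36), PTBP1 (−0.27), BAX (−0.24), DYNLL2 (−0.22) and MYC (−0.22) were lower with shRBM10#2. RBM10 itself was lower with shRBM10#2 by a log2 FC of −1.11, and the part of RBM10 level in these differences was not tested. MIR4435-2HG held this call without each library in turn. The others lost it without at least 1 library, with FDR values of 0.0612 for MAPK8 without shRBM10#2 replicate 1, 0.377 for BMF without shRBM10#1 replicate 2 and values between these for the remaining 8.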

How the results depend on the processing

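The log2 FC of BCL2L11 against shScr was positive under all alternatives taken for it, limma not being among them. Counting the comparison between the shRNAs as well, 41 of 48 alternative values moved by less than the SD between replicates (0.0497 on the log2 scale). The log2 ratio of mean TPM was lower, at 0.50 pooled, 0.53 with shRBM10#1 and 0.47 with shRBM10#2. Leaving out single libraries gave 0.56 to 0.61 pooled, 0.58 to 0.69 with shRBM10#1, 0.52 to 0.58 with shRBM10#2 and −0.14 to −0.032 between the shRNAs. Where this left a condition with 1 library, that library was assumed to vary like the others. The BimEL share with shRBM10#1 was 4.20 percentage points above shScr, but −0.383 without shScr replicate 2 and 8.79 without shScr replicate 1. With shRBM10#2 it was 12.5 points above, with a range of 7.88 to 17.1. The higher share of BimEL, BimL and BimS stayed between 4.52 and 9.10 points with shRBM10#1 and between 16.7 and 19.5 with shRBM10#2, and the BimEL transcript's log2 FC between 0.65 and 1.07 and between 0.88 and 1.30.

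The number of network genes called (pooled 1, shRBM10#1 7, shRBM10#2 13, between the shRNAs 11) changed more. Without single libraries it ranged over 0 to 2, 3 to 6, 2 to 14 and 1 to 11. DESeq2 called 2 in the pooled comparison. limma on log2(TPM + 1) called 3 with shRBM10#1, 2 with shRBM10#2 and 1 between the shRNAs. With an absolute log2 FC above 1 as well, 0 were called in each comparison by edgeR. The share of all genes called under these settings, or with the replicate block below, is not given. These counts therefore do not set the network apart from other genes. The cause was not tested.

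With the replicate number as a block, 0 network genes were called pooled (5 at an unadjusted p below 0.05) and 8 with shRBM10#2, and the other counts stayed within 1.5 times. Same-numbered libraries did not deviate together (correlations −0.0041, −0.0191 and −0.0133 across genes), so no pairing by number was seen. These correlations cannot tell whether same-numbered libraries were prepared together. For differences in share the block gives the same value by construction. The gene had 812 to 1473 expected counts per library, which limits the precision of transcript values, and counting intervals do not cover the division of reads between transcripts.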
